A study of Mus musculus with 4 samples.

Results

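Collecting duct principal cells are the epithelial cells of the last nephron segments that carry the water channel aquaporin-2. They were followed here in whole-kidney single-cell RNA-Seq of mice on a normal diet (ND) or a high-fat diet (HFD). A barcode was counted as a principal cell when it held 200 to 5000 detected genes, under 50% mitochondrial transcripts, at least 5 unique molecular identifiers (UMIs, each standing for a captured transcript) of Aqp2 and at least 15 Aqp2 UMIs per 10000. Barcodes with 10 or more UMIs per 10000 of the intercalated cell genes Atp6v1g3 and Atp6v0d2 together, or of the proximal tubule genes Slc34a1 and Lrp2 together, were left out. This gave 1356 principal cells among 34789 barcodes that met the limits on genes and mitochondrial transcripts (kept barcodes), of 58660 barcodes in all. The levels of Aqp2 and of the 4 limiting genes therefore describe the choice of cells and are not results.

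The mice were males of the C3H strain (C3H/HeJ in the study's methods), 10 weeks old when the diets began and 18 weeks old at harvest after 8 weeks of diet, and HFD supplied 60% of calories from fat. Wild-type (WT) mice were set beside Sweet Pee (SP) mice, which are homozygous for a missense mutation in Slc5a2 and so lack working SGLT2, the glucose cotransporter of the proximal tubule. The collecting duct lies downstream of that segment. The 4 conditions had 1 library each and are called by genotype and diet. Where 4 values follow each other, they stand for ND and HFD in WT, then for ND and HFD in SP. The number of animals behind a library and the hour of collection are not given in the sources used here. Replicate error could not be measured from 1 library for each, so no test was made and no p-value is given. An additive model over the 4 libraries was not fitted.

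The WT-ND library held 286 principal cells, WT-HFD 356, SP-ND 271 and SP-HFD 443. Total UMIs over all barcodes were 93142028 on ND and 115117649 on HFD in WT mice, and 111617794 on ND and 90728590 on HFD in SP mice. The principal cells contributed 1997711, 2500721, 2535629 and 3035915 UMIs, in the same order. SP-ND stood apart in depth, with a median of 8660 UMIs per principal cell, against 5850 in WT-ND, 5834.5 in WT-HFD and 5768 in SP-HFD. The median mitochondrial share of a principal cell was 14.6% in WT-ND and 16.7% in SP-ND, and 20.2% in WT-HFD and 20.0% in SP-HFD, so that both HFD libraries were above both ND libraries. Among all barcodes, 379 barcode sequences occurred in more than 1 library, and 22 of the 1356 principal cells had such a sequence. No principal cell shared its barcode sequence with a principal cell of another library.

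Principal cells take up water through Aqp2 in the apical membrane and Aqp3 and Aqp4 in the basolateral membrane, under the control of vasopressin, whose receptor Avpr2 raises cyclic AMP. They also reabsorb sodium through the epithelial sodium channel ENaC, under the control of aldosterone, and secrete potassium. Hsd11b2 inactivates glucocorticoids and so leaves the mineralocorticoid receptor to aldosterone. The cells begin in the connecting tubule, where calcium-handling proteins such as calbindins are also made, and extend to the inner medulla, where Aqp4 and the urea transporter Slc14a2 are prominent.

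The marker genes that the rule did not use fitted the label. UMIs were summed over the principal cells of a library and scaled to counts per 1000000 UMIs (CPM). Aqp3 stood at 2231 CPM on ND and 2043 on HFD in WT mice, and 2221 on ND and 2267 on HFD in SP mice, against 80.9, 90.5, 51.1 and 74.0 CPM in all other kept barcodes. Fxyd4, a modulator of the sodium pump, stood at 4423, 4133, 3965 and 4104 CPM against 99.4, 88.6, 58.0 and 77.5 CPM. Scnn1g, the gamma subunit of ENaC, stood at 403, 312, 374 and 385 CPM against 29.1, 18.3, 25.6 and 21.8 CPM. All 3 genes were more than 10 times higher in principal cells than in the other kept barcodes of every library, and none differed by 2-fold between libraries. Hsd11b2 was 3702, 2481, 3607 and 3363 CPM in the principal cells, lowest in WT-HFD.

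**Figure D1:**
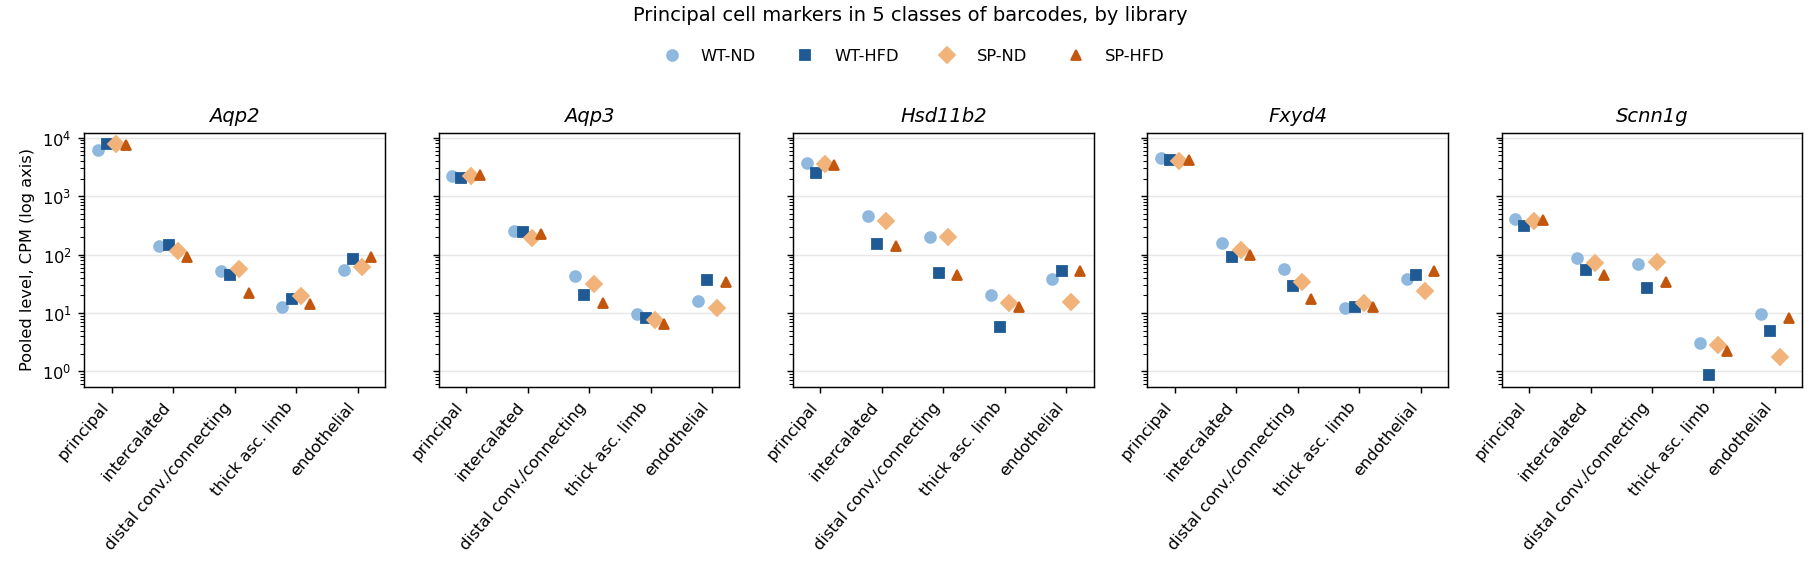
Levels of the 5 principal cell markers (CPM, log axis) in principal cells and in intercalated, distal convoluted and connecting tubule, thick ascending limb and endothelial barcodes, with a point for each library. Principal cells stand above every other class for each marker in all 4 libraries; Aqp2 was used to choose them.

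A low level of these genes was found in every class. Each cell was reduced at random to 1000 UMIs. An Aqp2 UMI was then found in 2.60%, 3.11%, 2.92% and 2.09% of endothelial barcodes, which should lack it. The shares of principal cells, at 96.5%, 97.7%, 98.5% and 95.7%, follow from the rule and are not a result. This thinning left out 6 principal cells with fewer UMIs (5 in WT-HFD, 1 in SP-HFD). The 20 genes that stood furthest above the other kept barcodes in all 4 libraries included the vasopressin receptor Avpr2, the prostaglandin receptor Ptger1, the growth factor gene Btc, the potassium channel subunit Kcne1, the ENaC subunit Scnn1b, the transcription factor Ehf and the stress cytokine Gdf15. Avpr2 stood at 296, 226, 385 and 226 CPM, and Gdf15 at 1146, 1235, 820 and 1273 CPM. Of these 20 genes, only Aqp4 was past 2-fold in a comparison between libraries.

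Principal cells made up 2.63% of the kept barcodes on ND (Clopper-Pearson 95% interval 2.34 to 2.95) and 3.67% on HFD (3.30 to 4.06) in WT mice, and 4.01% on ND (3.56 to 4.51) and 5.93% on HFD (5.41 to 6.49) in SP mice. These intervals, like all intervals given here, cover counting error only and not the difference between animals or preparations. The share was lowest in WT-ND and highest in SP-HFD, and the intervals of WT-HFD and SP-ND overlapped. The shares depend on the rule: the limits on Aqp2 alone were met by 383, 512, 300 and 503 kept barcodes, of which 36, 70, 2 and 5 were lost to the limit on Slc34a1 and Lrp2 and 64, 105, 28 and 56 to the limit on intercalated cell genes. Just inside the Aqp2 limit, at 15 to 20 UMIs per 10000, were 36, 34, 28 and 40 cells, and just outside it, at 10 to 15, were 58, 58, 41 and 49 barcodes. How many cells of each kind the digestion released was not measured.

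The question asked of the diet pairs was how principal cells of mice on HFD differed from those on ND, in each genotype. A gene was called past 2-fold when its CPM differed at least 2-fold between 2 libraries (a log2 ratio of at least 1 in size), the exact 95% counting interval of the ratio excluded 0 on the log2 scale, and it reached 50 CPM in at least 1 of the 2. In WT, 66 of 2989 genes were higher past 2-fold on HFD (2.21%) and 51 were lower (1.71%). In SP, 41 of 2958 were higher (1.39%) and 33 were lower (1.12%). The balance between the directions was not stable: with the median ratio set to 0 there were 96 higher and 24 lower in WT and 42 and 27 in SP, and with each cell reduced to 1000 UMIs 111 and 240 in WT and 87 and 128 in SP. The 2 diet pairs share no library, and 18 genes were higher in both (0.646% of the 2786 genes tested in both) and 13 lower in both (0.467%), or 20 and 9 with the median ratio set to 0 and 23 and 25 after the reduction. A single gene, Cdkn1c, went past 2-fold in opposite directions. The 31 genes that went the same way were 35.6% of the calls in WT and 56.4% of those in SP among the genes tested in both. Across these 2786 genes, which are not independent replicates, the log2 ratios of the 2 pairs had a Pearson correlation of 0.64 and a Spearman correlation of 0.60, and 72.2% had the same sign. The median ratio over all tested genes was -0.20 in WT and -0.07 in SP, against which the values that follow can be read.

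**Figure D2:**
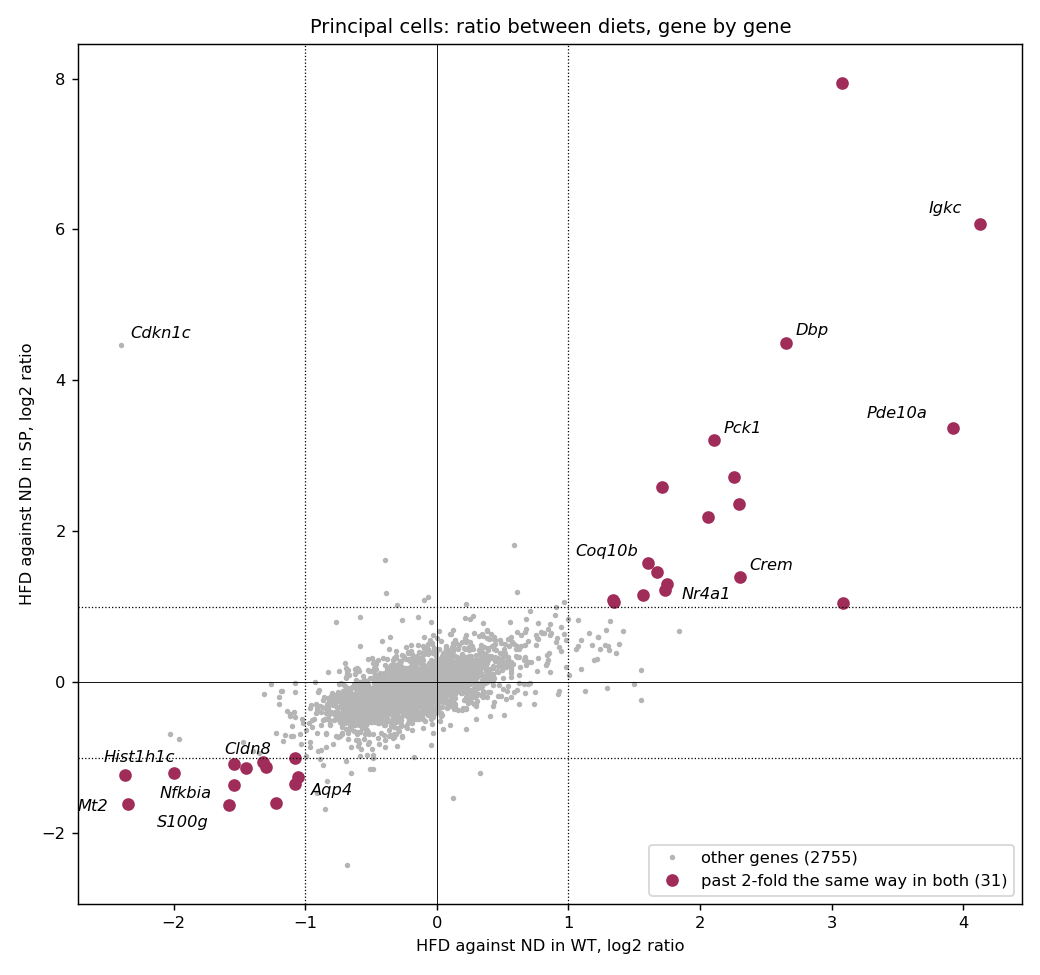
Log2 ratio of HFD to ND for 2786 genes in principal cells, WT on the horizontal axis and SP on the vertical axis; dotted lines mark 2-fold. The 31 larger points are past 2-fold the same way in both genotypes, with Igkc, Pde10a and Dbp far to the upper right and Hist1h1c and Mt2 to the lower left, and Cdkn1c stands alone in the opposite corner.

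Several genes of the circadian clock were among the genes that were higher on HFD. The clock is a feedback loop in which Clock and Arntl drive genes through E-box sequences in their promoters, including the Per genes that repress it, Nr1d1 and Nr1d2 that repress Arntl, and the output factors Dbp and Tef. Of 16 clock genes, 7 reached the level needed in each diet pair: 4 were past 2-fold higher in WT and 5 in SP, and none was past 2-fold lower. Of all genes tested, 2.21% were past 2-fold higher in WT and 1.39% in SP. Dbp was 14.5 CPM on ND and 91.6 on HFD in WT mice, and 7.49 on ND and 170 on HFD in SP mice, with log2 ratios of 2.66 (2.1 to 3.27) in WT and 4.50 (3.84 to 5.24) in SP. Tef was 18.5, 77.2, 21.3 and 97.2 CPM (log2 ratios 2.06 and 2.19). Per1 was 25, 83.2, 28.8 and 67.5 CPM (1.73 and 1.23). For each of these genes both HFD libraries were above both ND libraries. Nr1d2 was 16.5, 54.0, 11.8 and 71.5 CPM. The WT call of Tef was lost with each cell reduced to 1000 UMIs. That of Nr1d2 was lost with barcodes that carried markers of other classes left out. Nr1d1 did not share this order, at 115, 87.6, 41.0 and 126 CPM. Arntl, the activator, was low throughout and lower in both HFD libraries, at 10.5, 2.80, 17.4 and 0.659 CPM, under the level needed for a call.

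The median log2 ratio of the 7 clock genes was 1.71 in WT and 1.62 in SP, and in the other kept barcodes the medians were 0.60 and 0.76. These medians carry the same limit, as they include the genes that passed through HFD alone. Dbp was higher on HFD in the other classes too: in endothelial barcodes it was 48.5, 131, 23.3 and 107 CPM. Both HFD libraries were thus above both ND libraries in Dbp there as well, although SP-HFD was highest in principal cells and WT-HFD in endothelial barcodes.

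The stretch of 250 bases before the annotated transcription start was searched on both strands for the E-box CACGTG in the promoters of the genes past 2-fold in both diet pairs. Of 17 of the higher genes, 10 had entries used here, with 13 promoters, and 4 of these promoters, of 3 genes (Per1, Tef and Coq10b), held the E-box. Of the 13 lower genes, 10 had entries, with 12 promoters, and none held it. Of all 32851 promoters of this length, 6.02% held it. The 3 stretches are shown because they belong to clock genes and to the coenzyme Q gene Coq10b with the same motif, in capitals. They are RefSeq sequences of build GRCm38.p6 and are given in the direction of transcription. Per1 is taken from chr11:69098699-69098948 on the plus strand, Tef from chr15:81802423-81802672 on the plus strand and Coq10b from chr1:55052520-55052769 on the plus strand.
Per1: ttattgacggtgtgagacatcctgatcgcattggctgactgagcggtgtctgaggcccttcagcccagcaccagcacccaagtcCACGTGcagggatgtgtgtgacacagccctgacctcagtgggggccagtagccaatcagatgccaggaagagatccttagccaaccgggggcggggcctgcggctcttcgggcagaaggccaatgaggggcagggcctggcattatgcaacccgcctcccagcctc
Tef: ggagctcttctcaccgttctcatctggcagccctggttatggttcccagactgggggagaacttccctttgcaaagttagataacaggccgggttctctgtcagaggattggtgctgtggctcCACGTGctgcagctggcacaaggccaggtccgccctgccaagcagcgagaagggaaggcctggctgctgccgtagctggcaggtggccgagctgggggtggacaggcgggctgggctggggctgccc
Coq10b: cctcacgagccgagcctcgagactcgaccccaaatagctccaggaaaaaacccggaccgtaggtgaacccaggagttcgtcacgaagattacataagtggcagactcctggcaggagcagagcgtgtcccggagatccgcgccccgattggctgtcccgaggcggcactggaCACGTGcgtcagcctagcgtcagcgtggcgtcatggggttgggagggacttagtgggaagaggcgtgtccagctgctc
The last base of the motif lay 161 bases before the start in Per1, 122 in Tef and 73 in Coq10b. A match is a description of the letters and not of binding. Coq10b, which encodes a coenzyme Q binding protein of mitochondria, was 44.1, 134, 50.9 and 152 CPM, with log2 ratios of 1.60 and 1.58. The D-box TTATGTAA, the motif of Dbp and Tef, was in 0.819% of all promoters and, among the promoters of both sets, in that of Coq10b alone.

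Pde10a, a phosphodiesterase that breaks down cyclic nucleotides, had the largest ratio in WT of any gene called in both pairs other than an immunoglobulin gene. It was 21.5 CPM on ND and 327 on HFD in WT mice, and 28.0 on ND and 288 on HFD in SP mice, with log2 ratios of 3.93 (3.48 to 4.4) in WT and 3.36 (3.01 to 3.73) in SP. At 1000 UMIs per cell, 4.20% of principal cells in WT-ND and 4.06% in SP-ND had a Pde10a UMI, against 30.5% in WT-HFD and 27.1% in SP-HFD. In endothelial barcodes the share was 1.68%, 1.80%, 2.31% and 2.20%, and the level 17.4, 22.6, 14.5 and 20.2 CPM. Intercalated barcodes on ND were lower, at 4.12 CPM in WT and 3.91 in SP, so the endothelial shares do not serve as a background. The part of RNA from other cells in the ND shares of principal cells was not tested. Without thinning, 12.6%, 69.9%, 18.8% and 69.8% of principal cells had a UMI. No background share without thinning is given here, so a spread of the higher level over most cells was not tested.

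Crem, a transcription factor gene that is itself induced by cyclic AMP, was 36.0 CPM on ND and 178 on HFD in WT mice, and 50.5 on ND and 132 on HFD in SP mice (log2 ratios 2.30 and 1.39). Nr4a1, an orphan nuclear receptor induced by cyclic AMP and other stimuli, was 119, 399, 74.9 and 185 CPM (1.75 and 1.30). Pck1, the enzyme that commits carbon to glucose synthesis, was 30.5, 132, 11.8 and 110 CPM. For all 3, both HFD libraries were above both ND libraries. Pck1 is a proximal tubule gene and was 303, 1314, 212 and 1020 CPM in the other kept barcodes, and the part of RNA from those cells in its ratio was not tested. The palindromic cyclic AMP response element TGACGTCA was in 1.55% of all promoters and in none of the 13 promoters of higher genes. The short form TGACG, which the palindrome contains, was in 5 of these 13 (Coq10b, Nr4a1, Pck1 and Per1), in 3 of the 12 promoters of lower genes and in 17.8% of all promoters.

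Genes of water transport did not move as a set. Of 15 genes of water transport and vasopressin signalling, 8 were tested in WT and 7 in SP. In WT, Adcy6, an adenylate cyclase, was past 2-fold higher (44.1 CPM on ND and 94.4 on HFD) and Aqp4 was past 2-fold lower, and in SP only Aqp4 was called. The medians were -0.09 and 0.03. Aqp4, the basolateral water channel, was 655 CPM on ND and 315 on HFD in WT mice, and 672 on ND and 281 on HFD in SP mice, so that both HFD libraries were below both ND libraries. Its log2 ratio in WT was -1.06, with an interval of -1.19 to -0.93, and in SP -1.26, with an interval of -1.38 to -1.14. The WT value lay close to the 2-fold limit and met it in 6 of 11 alternative settings, with a range of -1.24 to -0.86, and the SP value met it in 11 of 11. Avpr2 had log2 ratios of -0.39 and -0.77.

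Mat2a encodes the enzyme that makes S-adenosylmethionine, the methyl donor of the cell. It was 128 CPM on ND and 407 on HFD in WT mice, and 131 on ND and 363 on HFD in SP mice, with log2 ratios of 1.67 (1.47 to 1.88) in WT and 1.47 (1.29 to 1.65) in SP. At 1000 UMIs per cell, 10.8% and 17% of principal cells in WT-ND and SP-ND had a Mat2a UMI, and 29.6% and 29.2% in WT-HFD and SP-HFD. In endothelial barcodes, which also express it, the shares were 13.6%, 16.6%, 16.3% and 19.2%. In the other kept barcodes Mat2a was 148, 165, 142 and 158 CPM, a log2 ratio of 0.15 in both genotypes. Of the 16 genes of methionine metabolism and the H3K27 methyltransferase complex PRC2, 6 were tested in WT and 5 in SP, and Mat2a was the only one past 2-fold, in both. The medians of the list were -0.03 and -0.12.

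The genes that were lower on HFD in both genotypes included metallothioneins, an iron uptake gene, an inhibitor of NF-kB and a tight junction gene. Mt1, a metal-binding metallothionein, was 1943, 667, 1874 and 887 CPM (log2 ratios -1.54 and -1.08). Mt2 was 494, 97.2, 407 and 133 CPM (-2.35 and -1.61). Tfrc, the transferrin receptor, was 85.1, 36.4, 132 and 43.5 CPM (-1.23 and -1.60). Hist1h1c, a linker histone gene, was lower in the same way, at 540, 105, 474 and 203 CPM (-2.37 and -1.23). In the other kept barcodes it was 126, 75.7, 156 and 87.7 CPM. Cldn8, a claudin of collecting duct tight junctions, was 386, 142, 404 and 184 CPM (-1.45 and -1.14). Adh1, an alcohol and retinol dehydrogenase, was 385, 157, 396 and 182 CPM (-1.30 and -1.12), and Cirbp, a cold-inducible RNA-binding protein gene, 118, 47.2, 102 and 49.1 CPM (-1.32 and -1.05). In all of these genes both HFD libraries were below both ND libraries, and the WT pair lay further apart than the SP pair on the log2 scale in each except Tfrc.

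**Figure D3:**
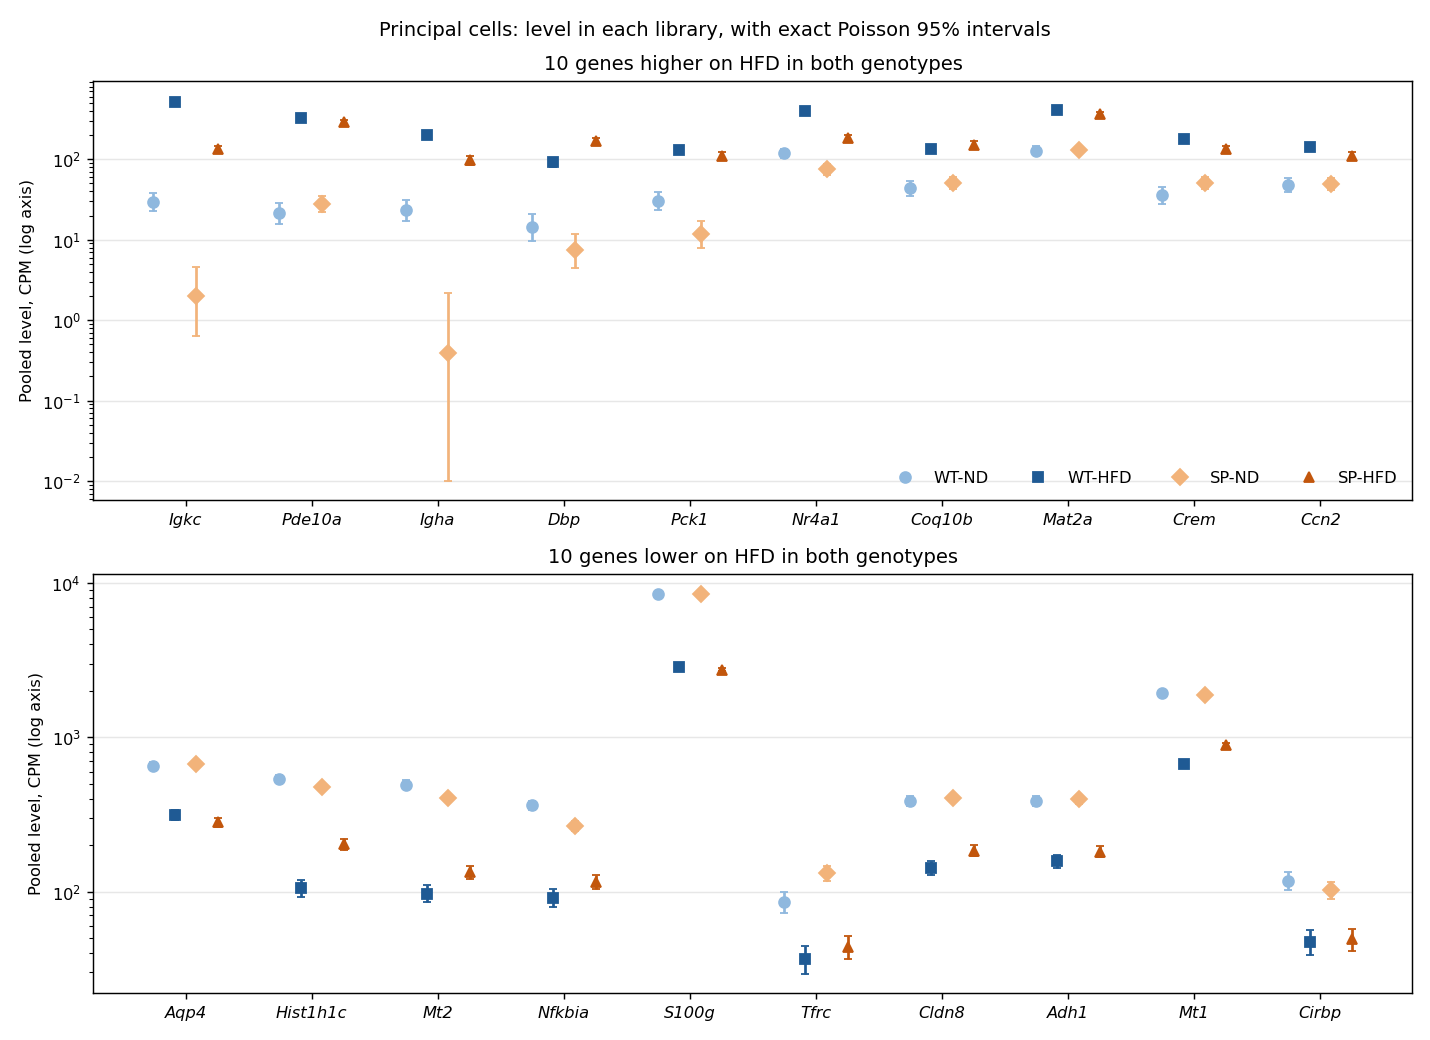
Level in principal cells (CPM, log axis) in each of the 4 libraries for the 10 genes highest and the 10 lowest on HFD in both genotypes under the naming rule; bars are exact Poisson 95% intervals. In the upper panel both HFD libraries stand above both ND libraries for each gene, and in the lower panel both stand below them.

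Nfkbia encodes the inhibitor that holds NF-kB in the cytoplasm and is itself induced by NF-kB. It was 362 CPM on ND and 90.8 on HFD in WT mice, and 266 on ND and 116 on HFD in SP mice, with log2 ratios of -2.0 (-2.22 to -1.78) and -1.20 (-1.39 to -1.01). At 1000 UMIs per cell, 21.0% and 17.3% of principal cells in WT-ND and SP-ND had an Nfkbia UMI, and 7.12% and 8.60% in WT-HFD and SP-HFD. In the other kept barcodes the order was different, at 75.9, 107, 114 and 144 CPM. Of 23 NF-kB genes, 4 were tested in each pair, and Nfkbia was the only one past 2-fold. The medians of the 4 were -0.23 in WT and 0.24 in SP, with 1 and 3 above 0. The kappaB site (GGG, any 2 bases and TTTCC) was in 1.41% of all promoters, in 1 of the 12 promoters of the lower genes and in none of the 13 of the higher genes. That promoter is Nfkbia, shown because its gene and the NF-kB genes are described here. It lies at chr12:55492648-55492897 on the minus strand, and the capitals mark the motif, which was matched on the other strand and ends 20 bases before the start.
Nfkbia: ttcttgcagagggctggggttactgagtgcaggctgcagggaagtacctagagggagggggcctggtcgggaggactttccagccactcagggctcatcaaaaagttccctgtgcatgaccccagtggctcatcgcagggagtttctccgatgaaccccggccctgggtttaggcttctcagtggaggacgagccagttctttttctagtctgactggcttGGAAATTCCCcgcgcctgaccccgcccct

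The diet ratios were then set beside those of 4 other classes of barcodes from the same libraries, chosen by similar limits on their own genes: 1416 intercalated barcodes, 2954 of the distal convoluted and connecting tubule (Slc12a3 and Calb1), 4024 of the thick ascending limb (Slc12a1) and 2893 endothelial ones. As the classes come from the same 4 libraries, their ratios are not independent of each other. Pde10a was higher on HFD in the other tubular classes as well, from a lower level. In intercalated barcodes it was 4.12, 33.8, 3.91 and 23.8 CPM, with log2 ratios of 3.04 in WT and 2.61 in SP. In endothelial barcodes the ratios were 0.38 and 0.48. Mat2a stood apart from this: its log2 ratios were 1.67 and 1.47 in principal cells and between 0.03 and 0.51 in the 4 other classes over both genotypes. Crem, at 2.30 and 1.39 in principal cells, had ratios between 0.19 and 0.72 in the other classes. Nfkbia had -2.0 and -1.20 in principal cells, and 0.29, 0.14, 0.32 and 0.56 in the intercalated, distal, thick ascending limb and endothelial classes of WT. In SP the other classes ranged from -0.78 in the distal class to 0.21 in the thick ascending limb.

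Hist1h1c in thick ascending limb barcodes was 175, 38.0, 225 and 56.5 CPM, with ratios of -2.20 and -1.99 beside -2.37 and -1.23 in principal cells. Its ratios in WT and SP were -0.70 and -0.60 in intercalated, -0.72 and -0.39 in distal and -0.71 and -0.49 in endothelial barcodes, under 2-fold in each. S100g, the gene of the calcium-binding protein calbindin-D9k, was 8514, 2845, 8433 and 2738 CPM in principal cells (-1.58 and -1.62). Both calls were lost with a stricter limit on Aqp2 (at least 10 UMIs and 30 per 10000), at -0.25 and -0.42. S100g was lower on HFD in each of the other classes. Its ratios in WT and SP were -1.48 and -1.33 in distal, -1.81 and -2.21 in intercalated, -1.78 and -1.83 in thick ascending limb and -2.56 and -0.84 in endothelial barcodes. Aqp4 did not exceed 13.8 CPM in any of the other classes.

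**Figure D4:**
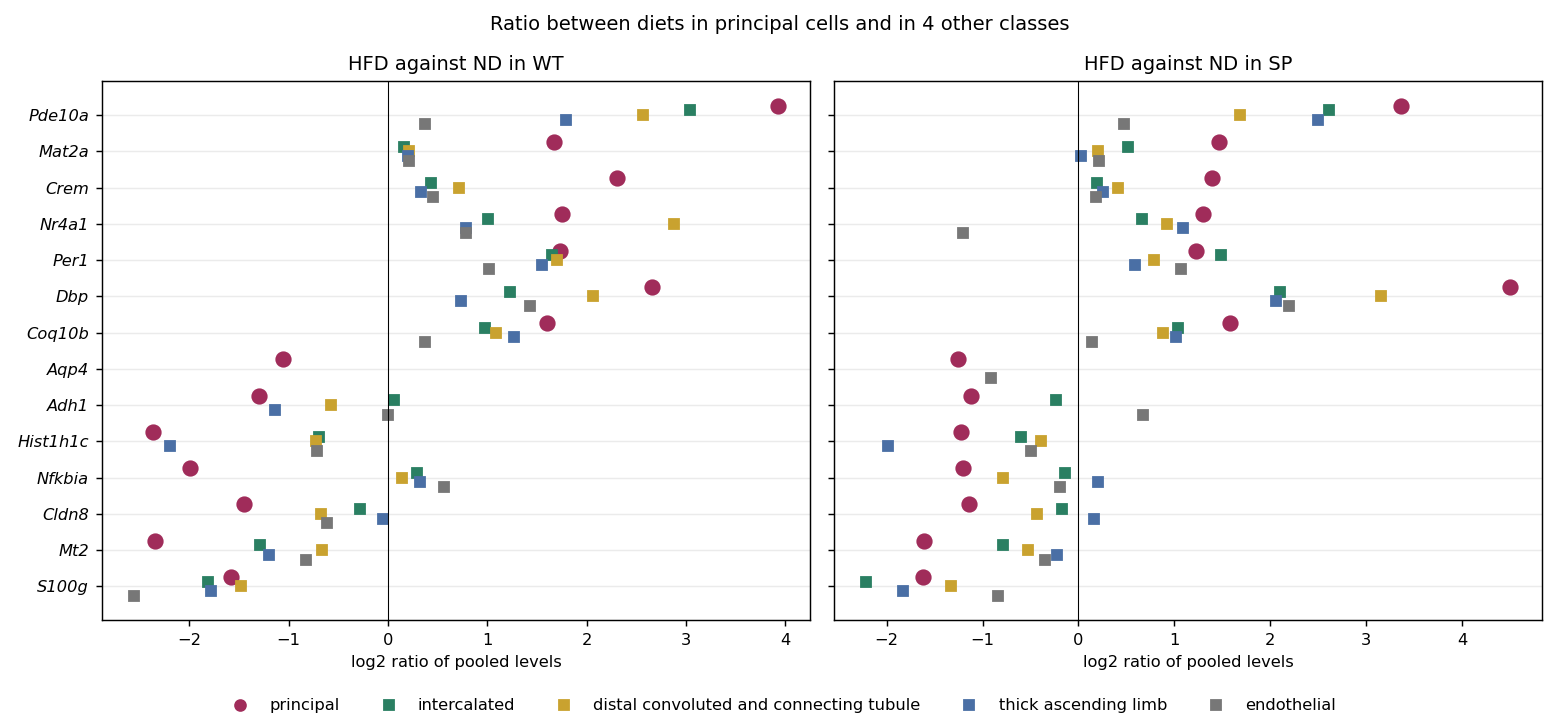
Log2 ratio of HFD to ND for 14 genes in principal cells (circles) and 4 other classes (squares), in WT (left) and SP (right); a square is left out where the gene was too low in that class. Mat2a, Crem and Cldn8 lie further from 0 in principal cells than in the other classes, whereas the squares and circles of Dbp, Per1 and S100g lie on the same side of 0.

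Genes past 2-fold in WT alone were described next; a difference between the genotypes in these ratios was not tested. Of all genes tested, 1.71% were past 2-fold lower in WT and 1.12% in SP. Among the collecting duct transcription factors, 13 of 17 were tested, none was higher past 2-fold, and 2 were lower in WT and none in SP, with medians of -0.26 and -0.28. These were Tfcp2l1, a factor of collecting duct cell identity, at 883, 431, 914 and 521 CPM (log2 ratios -1.03 and -0.81), and Elf3, an epithelial ETS factor, at 198, 79.6, 120 and 108 CPM (-1.32 in WT). The WT call of Tfcp2l1 held in 8 of 11 settings and that of Elf3 in 11. With the median ratio set to 0 the Tfcp2l1 call was lost. Kcnj10, a basolateral potassium channel, was 277, 105, 262 and 140 CPM (-1.40 and -0.91). Irf1, an interferon response factor, was 191, 46.8, 89.9 and 56.0 CPM (-2.03 and -0.68). Atf3, a stress-induced immediate early gene, was 247, 103, 146 and 143 CPM (-1.26 in WT). Hes1, a target of Notch, was 490, 215, 365 and 337 CPM (-1.19 in WT). In Elf3, Irf1, Atf3 and Hes1 the WT-ND library was highest of the 4. The glycolysis regulator Pfkfb3 was 101, 48.0, 116 and 115 CPM, with WT-HFD alone low, and its WT call held in 8 of 11 settings.

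Higher in WT alone were Slc5a3, the inositol transporter of osmotic adaptation (69.6, 179, 96.6 and 127 CPM), the immediate early gene Fosl2 (24.5, 87.6, 24.5 and 43.8 CPM), the deubiquitinase gene Usp2 (39.0, 91.2, 70.6 and 107 CPM) and Fxyd2, a sodium pump subunit (367, 801, 452 and 419 CPM). Fxyd2 is also a gene of the thick ascending limb and distal tubule, and its log2 ratio of 1.12 ranged from 0.36 to 1.41 over the 11 settings, under 2-fold with the stricter Aqp2 limit and with barcodes that carried markers of other classes left out. Grem1 and Ranbp3l were lowest in WT-ND. Grem1, a secreted antagonist of bone morphogenetic proteins, was 56.1, 159, 138 and 137 CPM, and Ranbp3l, an exporter of their Smad effectors from the nucleus, 74.6, 183, 168 and 159 CPM. For both genes the other 3 libraries lay close together, so that each was past 2-fold for HFD in WT (log2 ratios 1.50 and 1.30) and for SP on ND (1.30 and 1.17), and under it in the other 2 comparisons.

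Of the genes called lower on HFD in SP and not in WT, 3 were spread unevenly over the cells of SP-ND. Slc14a2, the urea transporter of the inner medullary duct, was 23.5, 10.4, 65.9 and 12.8 CPM. It was under the level needed for a call in WT, where its ratio was -1.18. In SP-ND, 18 cells held a UMI of it, with 89.8% of its UMIs in 5 cells. S100a6, a calcium-binding protein gene, was 120, 74.8, 200 and 37.6 CPM, with 89.8% of the SP-ND UMIs in 5 cells. Akr1b3, the aldose reductase that makes sorbitol in hypertonic medulla, was 253, 276, 545 and 189 CPM, with 64.9% of the SP-ND UMIs in 5 cells. Without the 5 richest cells of each library the SP ratios were -0.44 for S100a6 and -0.56 for Akr1b3, under 2-fold. An Akr1b3 UMI was found in 52.4% of the SP-ND and 39.1% of the SP-HFD principal cells, and in 14.8% and 10.6% at 1000 UMIs per cell, so that its call too rested on few cells. Slc8a1, the sodium-calcium exchanger of the connecting tubule, was 567, 397, 755 and 342 CPM (-1.14 in SP). This call was lost with the stricter Aqp2 limit and with up to 6000 genes per barcode, with a weakest ratio of -0.57. Irs2, an adaptor of insulin signalling, was 46.6, 91.2, 46.9 and 98.2 CPM (0.97 in WT and 1.06 in SP). Irs2 was thus close to 2-fold higher on HFD in both pairs.

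Principal cells were not uniform in Calb1 and Aqp4, and their position along the duct was not measured. At 1000 UMIs per cell, 60.8% on ND and 49.0% on HFD in WT mice, and 60.1% on ND and 64.3% on HFD in SP mice had a UMI of Calb1, the calbindin of distal convoluted and connecting tubule, against 6.11%, 2.79%, 4.46% and 2.42% of endothelial barcodes. Aqp4 had a UMI in 23.1%, 17.1%, 23.6% and 14.5% of principal cells, against at most 0.615% of endothelial barcodes. The 2 genes seldom met in a cell. Of the cells with Calb1, 8.05%, 4.65%, 10.4% and 10.2% also had Aqp4, and of those without it, 46.4%, 29.1%, 43.5% and 22.2% had Aqp4. Cells with neither made up 21.0%, 36.2%, 22.5% and 27.8%, most in WT-HFD.

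The lower level of Aqp4 on HFD was seen in both sets of cells. In cells with Calb1 it was 298 CPM on ND and 63.7 on HFD in WT mice, and 282 on ND and 163 on HFD in SP mice, and in cells without Calb1 it was 1188, 538, 1362 and 510 CPM. S100g was also lower on HFD in both sets. In cells with Calb1 it was 13184, 5038, 12549 and 3622 CPM. In cells without Calb1 it was 1525, 872, 1170 and 1014 CPM, under 2-fold (log2 ratios -0.81 in WT and -0.21 in SP). A difference between the sets was not tested. With the stricter limit on Aqp2 (at least 10 UMIs and 30 per 10000) the S100g ratios of all principal cells were -0.25 and -0.42, under 2-fold. Pde10a was higher on HFD whether or not cells had Calb1 (22.6, 352, 32.1 and 297 CPM with it, log2 ratios 3.97 and 3.21, and 3.93 and 3.72 without). Mat2a had ratios of 1.95 and 1.92 with Calb1 and 1.32 and 0.91 without. Hist1h1c had -1.52 and -0.86 with Calb1 and -3.01 and -1.51 without. Akr1b3 on ND was found chiefly in cells without Calb1, at 516 CPM in WT-ND and 1324 in SP-ND, against 77.7 and 104 CPM with it. As given above, most of its SP-ND UMIs lay in a few cells.

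**Figure D5:**
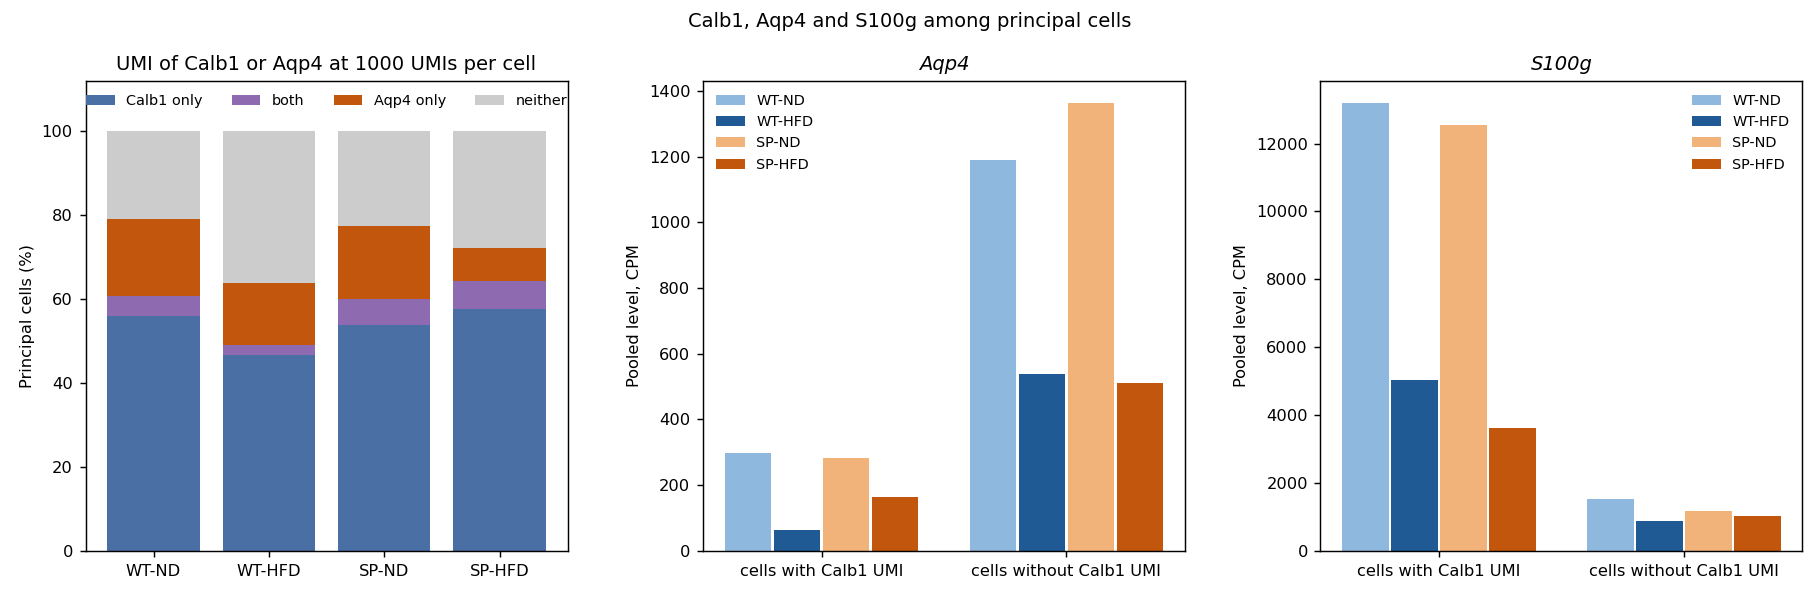
Left, share of principal cells (%) with a UMI of Calb1, of Aqp4, of both or of neither at 1000 UMIs per cell, by library; middle and right, level (CPM) of Aqp4 and S100g in cells with and without a Calb1 UMI. Both genes are lower on HFD in each set of cells, and the S100g bars of cells without Calb1 all stand under 1600 CPM.

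Sodium and potassium transport genes were mostly alike between diets. Of 24, 20 were tested in each comparison. In WT, Usp2 and Fxyd2 were past 2-fold higher and Kcnj10 lower, and in SP none was called, with medians of -0.01 and 0.05. Scnn1a, the alpha subunit of ENaC, was 272, 242, 337 and 268 CPM. Scnn1b was 485, 280, 427 and 365 CPM, lowest in WT-HFD. The junction and keratin genes had medians of -0.38 and -0.27, with Cldn8 lower in both pairs and Cldn10, a thick ascending limb claudin, higher in WT among 11 and 10 tested. The Cldn10 call was lost with the stricter Aqp2 limit, with barcodes that carried markers of other classes left out and with scored doublets left out, at a lowest ratio of 0.83. Krt18, an epithelial keratin, was 396, 221, 413 and 227 CPM (-0.84 and -0.86), lower in both HFD libraries but under 2-fold.

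Glycolysis and oxidative phosphorylation genes differed by less than 2-fold, apart from Pfkfb3. Of 15 glycolysis genes tested, 1 was above 0 in each diet pair, with medians of -0.40 in WT and -0.27 in SP, below the medians of all genes. In the other kept barcodes these medians were 0.10 and 0.04. Of 18 nuclear genes of oxidative phosphorylation, 1 was above 0 in WT and 9 in SP, with medians of -0.33 and 0.00. Among all genes tested, 29.9% were above 0 in WT and 39.7% in SP. Of the 13 protein genes of the mitochondrial genome, none was past 2-fold in any comparison. Immediate early genes went different ways: of 14 tested, Fosl2 and Nr4a1 were past 2-fold higher and Atf3 lower in WT, with a median of -0.36, and in SP only Nr4a1 was called, with a median of 0.18. Fos was 1601, 1042, 1087 and 1178 CPM, highest in WT-ND. Of 10 fatty acid response genes tested in WT, Fabp3, a fatty acid carrier, was higher (25.5 and 66.4 CPM), and of 9 in SP none was called. The WT call of Fabp3 was lost with scored doublets left out, with the stricter Aqp2 limit and with barcodes that carried markers of other classes left out. Of 11 injury genes tested, none was past 2-fold in WT and S100a6 was lower in SP.

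The genotype comparison asked how principal cells without working SGLT2 upstream differed from WT, on each diet. On ND, 12 of 2965 genes were higher in SP past 2-fold (0.405%) and 25 lower (0.843%). On HFD, 11 of 2814 were higher (0.391%) and 17 lower (0.604%). With the median ratio set to 0 there were 11 and 27 on HFD, and with each cell reduced to 1000 UMIs 55 and 62 on ND and 62 and 55 on HFD. The 2 genotype pairs share no library. A single gene was higher on both diets (0.0382% of the 2618 genes tested in both) and 6 were lower on both (0.229%). The 6 include Slc34a1, a gene of the rule. Across these 2618 genes the log2 ratios on ND and on HFD had a Pearson correlation of 0.11 and a Spearman correlation of -0.02, and 47.8% had the same sign. The median ratio of all genes was -0.01 on ND and 0.10 on HFD.

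The gene that was higher on both diets was Klk1, tissue kallikrein, a protease secreted into the urine by the connecting tubule. It was 59.6 CPM on ND and 68.8 on HFD in WT mice, and 454 on ND and 622 on HFD in SP mice, with log2 ratios of 2.93 (2.66 to 3.22) on ND and 3.18 (2.95 to 3.41) on HFD. Both SP libraries were above both WT libraries. Its UMIs were concentrated: 46.2%, 42.4%, 63.5% and 54.8% lay in 5 cells of each library, and without those cells the ratios were 2.37 and 2.83. With the stricter limit on Aqp2 the ratio on ND was 0.48, under 2-fold. At 1000 UMIs per cell, 5.24%, 5.13%, 10.7% and 8.37% of principal cells had a Klk1 UMI, against 3.82%, 2.30%, 6.46% and 5.27% of endothelial barcodes, so that the shares lay not far above this background. In the other kept barcodes Klk1 was 369, 241, 896 and 771 CPM, and the part of RNA from those cells was not tested.

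On ND, Sgk1 was also past 2-fold higher in SP. Sgk1, the aldosterone-induced kinase that keeps ENaC at the membrane, was 232 CPM on ND and 439 on HFD in WT mice, and 604 on ND and 545 on HFD in SP mice, so that WT-ND was lowest. The log2 ratio for genotype was 1.38 (1.23 to 1.53) on ND and 0.31 (0.20 to 0.42) on HFD, and whether these differ was not tested. Klk1 and Sgk1 were the 2 called among 20 transport genes on ND, and Klk1 was the only one on HFD, with medians of 0.11 and 0.19. Of all genes tested, 0.405% were past 2-fold higher on ND and 0.391% on HFD. Pycard, an inflammasome adaptor, was 40.0, 50, 109 and 95.5 CPM (1.44 and 0.93), and both SP libraries were above both WT libraries. Glycolysis genes had medians of 0.18 on ND and 0.29 on HFD, with 13 and 15 of 15 above 0, and Pfkfb3 was called on HFD (1.26). Nuclear oxidative phosphorylation genes had medians of -0.09 and 0.22, with 5 and 16 of 18 above 0. Of all genes tested, 48.8% were above 0 on ND and 69.0% on HFD.

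The 6 genes lower in SP on both diets were Kap, Cyp2e1, Ttc36, Slc34a1, Dnase1 and Acy3, and each was also lower in both SP libraries than in both WT libraries among the other kept barcodes. Kap, an androgen-regulated proximal tubule protein, was 2848, 2176, 447 and 1017 CPM in principal cells and 26947, 19512, 7119 and 10037 CPM in the other kept barcodes. Slc34a1 belongs to the rule, so its ratio describes the choice of cells and is not a result. On HFD Dnase1 kept its call in 11 of 11 settings, Ttc36 in 8, Cyp2e1 in 6 and Kap and Acy3 in 5. All of these but Dnase1 lost the HFD call with the stricter Aqp2 limit and with barcodes that carried markers of other classes left out. On ND the calls of Kap, Cyp2e1 and Acy3 held in 11 of 11 settings, that of Dnase1 in 10 and of Ttc36 in 9. The ND calls of Dnase1 and Ttc36 were lost with 5% of UMIs subtracted as free RNA. That of Ttc36 was also lost with under 30% mitochondrial transcripts. The summed level of the 8 proximal tubule markers that the rule did not use was 3577 CPM on ND and 2858 on HFD in WT mice, and 813 on ND and 1436 on HFD in SP mice, which was 10.2%, 11%, 6.60% and 10.5% of that in the other kept barcodes. Kap was the most abundant in every library and none of the 8 was at 0. The part of proximal tubule RNA in these 6 ratios was not tested.

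RNA of other cell types also differed between the libraries, for some types in different directions with diet in WT and SP. The 7 lymphoid markers summed to 43.5 CPM on ND and 653 on HFD in WT mice, and 5.13 on ND and 167 on HFD in SP mice. Igkc, an immunoglobulin light chain gene of plasma cells, was the most abundant in 3 of them, at 29.5, 515, 1.97 and 132 CPM, and in the other kept barcodes it was 1435, 9127, 171 and 14316 CPM. The T cell gene Cd3e and the B cell gene Ms4a1 were both at 0 in the principal cells of both HFD libraries. Igkc and Igha were past 2-fold higher on HFD in both genotypes, and both SP calls were lost with 5% of UMIs subtracted as free RNA. Myeloid markers summed to 43.0, 34.0, 67.0 and 281 CPM, with Cd74, an antigen presentation gene, at 200 CPM in SP-HFD and 93.1% of that in 5 cells. The 4 podocyte markers reported here summed to 49.1, 48.0, 19.3 and 121 CPM, with Podxl most abundant in every library. Endothelial markers summed to 78.1, 157, 54.4 and 126 CPM, led by Emcn, and were higher on HFD in both genotypes. The 6 intercalated cell markers that the rule did not use summed to 74.1, 166, 81.6 and 111 CPM, and thick ascending limb markers to 1369, 1877, 1270 and 1563 CPM, led by Kcnj1, which principal cells express themselves. Distal convoluted tubule markers summed to 1921.7, 1384.4, 2210.5 and 1886 CPM, of which Calb1 was 1667, 1037, 1905 and 1531 CPM. Calb1, which the connecting tubule also makes, was lower on HFD in both genotypes. The list did not fall as a whole: of its tested genes, 3 of 4 had a ratio above 0 in WT and 1 of 3 in SP. Fibroblast and mural markers summed to 166, 9.20, 54.4 and 65.6 CPM. Dcn, Col1a1, Col1a2 and Col3a1 were at 0 in WT-HFD, and Dcn, Col1a1 and Col3a1 in SP-ND. The part of all these cell types in the diet ratios was not tested. Of the genes called the same way in both diet pairs, Tm4sf1, Tnfaip2, Nr1d2, Slc7a8, Aqp4 and Hacd4 lost a call in at least 1 pair with scored doublets left out or with barcodes that carried markers of other classes left out, and Pde10a, Mat2a, Crem and Nfkbia kept both calls under each of these settings.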

How the data were processed

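Single-cell RNA-Seq of whole kidneys, digested enzymatically and captured with 10x Genomics 3′ chemistry, was measured in 4 libraries. The values deposited are UMI counts of each gene in each barcode, produced by the authors using Cell Ranger on genome mm10; the submitters' processing notes give version 2.1.1 and the matrix headers 6.1.2. Counts were used as deposited, over 32285 genes and every deposited barcode, before the limits of the study's methods (200 to 5000 genes, under 50% mitochondrial transcripts) were applied. No cell annotation was used. The cells, gene lists and classes were chosen with earlier results of these data known.

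UMIs were summed over the principal cells of a library, so cells did not serve as replicates. Levels are CPM, with exact Poisson intervals; ratios have exact conditional binomial intervals and shares Clopper-Pearson intervals, all at 95%. Total UMIs ranged from 90728590 to 115117649 per library. To compare shares of cells with a UMI, each cell was thinned to 1000 UMIs. Doublets were scored by simulated doublets among 50 neighbours in 30 principal components of 2000 genes, and a share of 0.8% per 1000 kept barcodes was marked; they stayed in the values reported.

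Genes named were the markers and listed genes described by role; the 20 genes furthest above other kept barcodes; the 5 most extreme ratios each way per comparison; and the 10 each way common to both genotypes or both diets, at 100 CPM or more. Genes of the selection rule were left out of the last 3. Cdkn1c, Cyp2e1, Ttc36, Acy3, Tm4sf1, Tnfaip2, Slc7a8 and Hacd4 fall outside this rule and were named after their values were seen, as each passed 2-fold in both comparisons of a pair. Genes that fall under these rules but are not named are not reported here; they stay in totals and counts over all genes. Aldoa is listed under 2 identifiers, and that with more UMIs was used. Of the 11 defence and secreted protein genes, 9 were in the files under the names searched. Promoters were taken from RefSeq (GRCm38.p6).

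The alternatives were other limits on mitochondrial share, genes, UMIs and Aqp2, omission of barcodes with markers of other classes or of scored doublets, the mean over cells, thinning, subtraction of 5% of UMIs as free RNA, totals without mitochondrial UMIs, a median ratio set to 0 and a filter at 10 CPM. Tables were made in Python 3.11.15 with scipy 1.17.1, numpy 2.4.6 and pandas 2.3.3, doublets scored with scikit-learn 1.9.0 and figures drawn with matplotlib 3.10.9.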

Additional observations from a re-analysis of the deposited data

Results flagged for a closer look

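Cdkn1c, a cell cycle inhibitor gene that podocytes express strongly, differed in opposite directions between the diet pairs. Its log2 ratio of HFD to ND was -2.40 in WT and 4.47 in SP, and that of SP to WT was -5.08 on ND and 1.79 on HFD. The difference between the pairs was not tested. Its level was 80.1 CPM on ND and 15.2 on HFD in WT mice, and 2.37 on ND and 52.4 on HFD in SP mice, and 1 cell of WT-ND held 152 of its 160 UMIs.

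The gene and mitochondrial limits set aside barcodes that otherwise met the rule for principal cells. With more than 5000 detected genes there were 10 on ND and 13 on HFD in WT mice, and 40 on ND and 11 on HFD in SP mice, most in the library of greatest depth per cell. With 50% or more mitochondrial transcripts there were 12, 11, 13 and 13.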

How the results depend on the processing

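With 1 library per condition the values describe 4 libraries and not 4 conditions. Genes had to reach 50 CPM to be called, a limit that was chosen, and the counting intervals widen below it. No paired analysis was possible because each condition has 1 library and no replicate number. Of the gene ratios recomputed under the alternatives, 11490 moved by less than their counting interval, 2355 by more, and 14 changed sign. The cause of these changes was not tested.

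The share of principal cells among kept barcodes became 3.60% in WT-ND, 4.32% in WT-HFD and 5.49% in SP-ND with under 30% mitochondrial transcripts. With at least 1000 UMIs per barcode it was 3.23% in WT-ND and 6.52% in SP-HFD. With Aqp2 of at least 10 UMIs and 30 per 10000 it was 1.78% on ND and 2.64% on HFD in WT mice, and 2.87% on ND and 4.45% on HFD in SP mice. In WT-HFD it was 3.27% without barcodes carrying markers of other classes and 4.20% without the limit on Slc34a1 and Lrp2, an alternative chosen after seeing the data.

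Genes past 2-fold numbered, after thinning to 1000 UMIs per cell, 111 higher and 240 lower for HFD in WT, 87 and 128 for HFD in SP, 55 and 62 for SP on ND, and 62 and 55 for SP on HFD, with 25 lower on HFD in both genotypes and 3 higher in SP on both diets. With a filter at 10 CPM, which lets in more genes, they were 229 and 274, 195 and 122, 73 and 169, and 81 and 83, with 60 higher and 30 lower on HFD in both genotypes and 8 higher and 17 lower in SP on both diets. With the median ratio set to 0 there were 24 lower on HFD in WT, 27 lower in SP on HFD and 10 lower in SP on both diets. With 5% of UMIs subtracted as free RNA there were 16 lower in SP on ND and 3 lower in SP on both diets. Without the limit on Slc34a1 and Lrp2 there were 49 lower in SP on ND, 45 lower on HFD and 30 on both. Without barcodes carrying markers of other classes there were 5 higher and 11 lower in SP on HFD, and 1 lower on both diets. Without scored doublets there were 4 higher in SP on HFD and 3 lower on both diets. As a mean over cells there were 6 higher and 36 lower in SP on HFD and 2 higher on both diets. With the stricter Aqp2 limit there were 9 lower in SP on HFD, 0 higher on both diets and 1 lower on both. With under 30% mitochondrial transcripts there were 3 lower on both diets. The other counts stayed within 1.5 times, including that of the 18 genes higher on HFD in both genotypes under each alternative except the 10 CPM filter, and that of the 13 lower genes under each except this filter and thinning.

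Some ratios changed sign. Cdkn1c for HFD in WT was 1.22 without scored doublets, 0.22 after thinning, 2.00 without the 5 cells richest in it and 2.83 in cells with a Calb1 UMI, and for SP on HFD it was -1.76 without doublets and -1.60 without the 5 richest cells. For HFD in SP, cells with a Calb1 UMI gave 0.43 for S100a6 and 0.51 for Akr1b3, and thinning gave -0.12 for Ednrb. For SP on HFD, Podxl was -0.26 without doublets and -0.40 without the 5 richest cells, the stricter Aqp2 limit gave 0.13 for Jchain and 0.34 for Igha, and cells with a Calb1 UMI gave 0.44 for Aqp6. The ratios that leave out the 5 richest cells or split cells by Calb1 were chosen after seeing the data.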
